A study of Mus musculus with 12 samples.

Results

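Genes of oxidative phosphorylation, nuclear and mitochondrial, were followed through RNA sequencing of dendritic cells from mouse spleen. They were chosen by symbol: protein-coding rows of the count table whose mouse symbol begins with mt-Nd, mt-Co, mt-Cytb, mt-Atp, Nduf, Uqcr, Cox4 to Cox8 or Atp5, or is Sdha, Sdhb, Sdhc, Sdhd or Cyc1. A gene also had to reach 1 CPM (counts per 1000000 counted reads) in at least 3 libraries. Of 27179 genes in the table, 114 had such a symbol, 109 of these were protein-coding, and 102 reached the minimum: 13 encoded by mitochondrial DNA and 89 by nuclear DNA. All 102 were among the 13415 genes tested. Of the nuclear genes, 36 encode structural subunits of complex I, 4 of complex II, 8 of complex III, 13 of complex IV (Ndufa4 counted there) and 17 of complex V. The other nuclear genes are 8 complex I assembly factors (Ndufaf1 to Ndufaf8), Ndufb4b and Ndufb4c, 2 copies of Ndufb4, and Cox7a2l, a factor of respiratory supercomplexes.

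The study profiled type 1 and type 2 conventional dendritic cells (cDC1 and cDC2) sorted from spleens of female C57/BL6 mice that were zfp366+/+ (WT) or carried the label zfp366-/- (KO). The gene's product is the zinc finger protein DC-SCRIPT, found in dendritic cells. The labels give no treatment and no age. Each of the 4 groups had 3 libraries. Animals were pooled: the labels name 6 pools, those numbered 1 to 3 from KO and 4 to 6 from WT mice, and a cDC1 and a cDC2 library were made from every pool. Cells were freed from the spleens by collagenase and DNAse, and libraries of polyA RNA were made with a TruSeq kit. In the lists of values below, replicates 1, 2 and 3 are given in that order.

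Oxidative phosphorylation makes most of the ATP of a resting cell. Complexes I and II pass electrons from NADH and succinate to ubiquinone, complex III passes them to cytochrome c, and complex IV to oxygen. The protons pumped on the way drive complex V, the ATP synthase. Complexes I, III, IV and V join subunits made from mitochondrial DNA, which is transcribed as long precursors that are cut into single mRNAs, with subunits made from nuclear genes and imported, whereas complex II is all nuclear. Dendritic cells shift between this pathway and glycolysis when they are activated.

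Library totals ran from 11330503 to 36761685 counted reads, a 3.24-fold range. Zfp366 itself was at 67.5 to 152 CPM in WT cDC1 and 45.4 to 48.8 in KO cDC1, a log2 fold change of -1.12 (edgeR adjusted p = 0.0326). In cDC2 it was at 52.5 to 62.4 CPM in WT and 55.0 to 80.6 in KO, so its mRNA does not separate the cDC2 libraries by their label, and KO below means that label. The labels do not say which part of the gene was removed. The 7 cDC1 markers summed to 4097 to 6009 CPM in cDC1 libraries and to 29.0 to 199 in cDC2 libraries, and the 6 cDC2 markers to 1896 to 2317 CPM in cDC2. In cDC1 the cDC2 markers summed to 52.2 to 69.2 CPM in WT and to 466 to 475 in KO, and the 4 monocyte markers to 369 to 395 in WT and 634 to 787 in KO. The 4 libraries numbered 1 stood apart from those numbered 2 and 3 in erythroid markers and, by a narrow margin, in neutrophil markers. Their 4 neutrophil markers summed to 0.934 to 6.10 CPM, against 6.24 to 82.9 in the other 8. Their 4 erythroid markers summed to 7.54 to 13.2 CPM, against 46.3 to 132. No marker of any of the 10 cell type lists was without reads. Each comparison below is therefore given with all libraries and with replicates 2 and 3 alone. The latter was chosen after the data were seen and leaves fewer libraries per group.

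The mitochondrial and the nuclear genes did not move together in every library. In replicate 1 of WT cDC1 and of KO cDC2 the mitochondrial share was the highest and the nuclear share the lowest of the group. A correlation of both shares over the 12 libraries was not calculated. In WT cDC1 the 89 nuclear genes took 0.873%, 1.56% and 1.70% of the reads, and in KO cDC1 1.00%, 0.938% and 1.04%. In WT cDC2 they took 1.56%, 1.42% and 1.56%, and in KO cDC2 1.03%, 1.64% and 1.51%. Replicate 1 was thus the low library of WT cDC1 and of KO cDC2, while all 3 KO cDC1 libraries were at a similar low share. The 13 mitochondrial genes took 2.30%, 1.09% and 1.25% of the reads in WT cDC1 and 2.04%, 0.866% and 0.713% in KO cDC1. They took 1.58%, 1.76% and 2.12% in WT cDC2 and 2.81%, 2.34% and 2.54% in KO cDC2. The mitochondrial share was highest in replicate 1 of 3 groups and lowest in replicate 1 of WT cDC2, and in cDC2 every KO library was above every WT library.

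In cDC1 the summed nuclear reads of complex II did not follow those of the other complexes. Nuclear genes of complex I took 0.190%, 0.365% and 0.401% of the reads in WT cDC1 and 0.222%, 0.210% and 0.237% in KO cDC1. Those of complex IV took 0.140%, 0.281% and 0.316% in WT and 0.164%, 0.149% and 0.173% in KO, and those of complex V 0.361%, 0.600% and 0.644% in WT and 0.403%, 0.376% and 0.408% in KO. In each of these complexes WT replicates 2 and 3 were above, and WT replicate 1 below, all KO libraries. The 4 genes of complex II took 0.0473%, 0.0509% and 0.0476% in WT cDC1 and 0.0516%, 0.0511% and 0.0531% in KO cDC1, a narrow range in which every KO library was above every WT library. Of the 4, only Sdha had a higher mean in KO than in WT cDC1, at 285 against 223 CPM. Sdhb (129 against 167), Sdhc (85.1 against 97.1) and Sdhd (7.87 against 14.0) had lower means in KO. The 4 genes are 1074 to 2859 bases long, while the median of the nuclear genes is 680. Levels followed gene length in these libraries, as given below, and the part of length in this contrast was not tested. In cDC2 the 4 genes took 0.0527%, 0.0375% and 0.0348% in WT and 0.0474%, 0.0376% and 0.0407% in KO, with replicate 1 the highest of both groups.

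The log2 ratio of mitochondrial to nuclear reads was 1.39, -0.52 and -0.45 in WT cDC1 and 1.02, -0.11 and -0.54 in KO cDC1, and these groups overlapped. It was 0.01, 0.31 and 0.44 in WT cDC2 and 1.45, 0.51 and 0.75 in KO cDC2, where every KO library was above every WT library. The KO minus WT difference of the group means was 0.65 in cDC2, and 0.26 with replicates 2 and 3 alone. In cDC1 this difference was -0.02, and it ran from -0.47 to 0.61 when each library was left out in turn. Reads of a bulk library cannot tell fewer cells of a type from less RNA per cell.

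**Figure D1:**
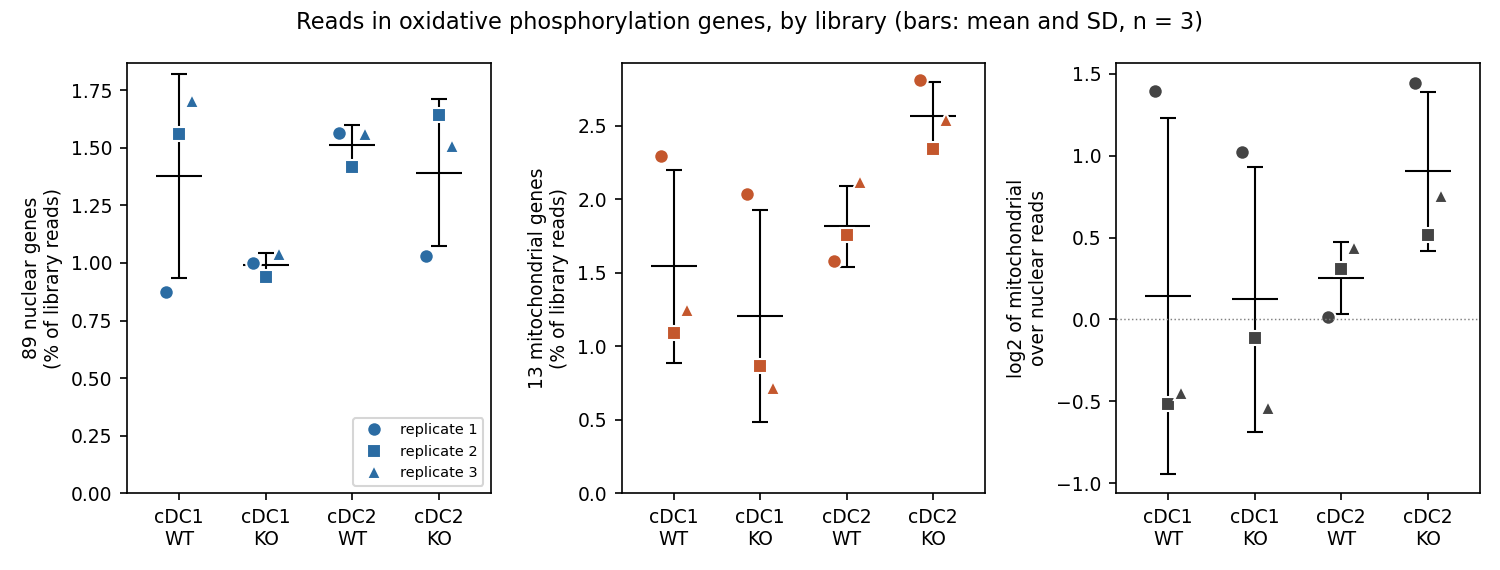
Percent of library reads in the 89 nuclear and the 13 mitochondrial oxidative phosphorylation genes and the log2 ratio of both sums (vertical axes), by group (horizontal axis), with 1 point per library, its shape giving the replicate number, and bars for the mean and SD of 3 libraries. The nuclear share was 0.938% to 1.04% in the KO cDC1 libraries, and the mitochondrial share was higher in all 3 KO than in all 3 WT cDC2 libraries.

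Levels between genes are compared per length, as reads per kilobase of length and 1000000 counted reads (RPKM, from the mean over 12 libraries). The most abundant mRNAs were mitochondrial: mt-Co1 stood at 4152 RPKM, mt-Co3 at 3741 and mt-Co2 at 1981, the 3 catalytic core subunits of complex IV, and the lowest mitochondrial gene, mt-Nd4l of complex I, was at 311. Among nuclear genes the highest in complex V were Atp5e, the epsilon subunit, at 1259 RPKM and Atp5b, the catalytic beta subunit, at 576. In complex IV they were Cox4i1 at 996 and Ndufa4 at 516, in complex III Uqcrh, the hinge protein, at 657 and Uqcr10 at 272, and in complex I Ndufb8 at 327 and Ndufa2 at 240.4. In complex II Sdhb, the iron-sulfur subunit, was at 124 RPKM and Sdha, the flavoprotein, at 79.2. The lowest structural subunits were Ndufs1 at 20.5 in complex I, Sdhd at 8.23 in complex II, Cyc1 at 99.3 in complex III, Cox7a1 at 2.87 in complex IV and Atp5g1 at 19.7 in complex V. Assembly factors were low as a set of genes, from 4.35 RPKM for Ndufaf4 to 66.4 for Ndufaf8.

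Several subunits of complexes IV and V have alternative genes, and 1 gene of each set supplied most of the mRNA here. Cox4i1 averaged 676 CPM, while Cox4i2, its hypoxia-linked alternative, had at most 0.096 CPM in any library. Cox6a1 (389 RPKM), Cox6b1 (354), Cox7a2 (45.9) and Cox8a (492) stood above their muscle or testis alternatives, of which Cox6b2 was at 4.64 and Cox7a1 at 2.87 RPKM. The complex IV genes without an alternative among the members, Cox5a, Cox5b, Cox6c, Cox7b and Cox7c, were at 336, 205, 472, 201 and 283 RPKM. Cox7a2l was at 411 RPKM, above Cox7a2. Of the 3 genes for subunit c, the ring of the ATP synthase, Atp5g3 stood at 394 RPKM, Atp5g2 at 66.0 and Atp5g1 at 19.7.

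Cox7a1 was just inside the minimum, with 1 CPM or more in 3 libraries and its highest value, 5.30 CPM (60 reads), in WT cDC2 replicate 3. Cox6b2 passed in 11 libraries, and Sdhd was the next lowest member at 10.6 CPM on average. Just outside was Cox6a2, with 1.18 and 1.06 CPM in WT cDC2 replicates 2 and 3 and less elsewhere. Ndufa4l2, Cox4i2 and Cox8b had few reads, and Cox8c, Cox7b2 and Uqcr11 had none in any library. A count of 0 allows up to 0.0816 to 0.265 CPM, taken as 3 reads per library, for counting error only. Uqcr11 encodes a subunit of complex III, and all other complex III genes chosen were counted.

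In cDC1, mRNAs of nuclear oxidative phosphorylation genes were mostly lower in KO than in WT, and only 1 passed the test with all libraries. That gene was Uqcrb (Gene ID 67530, chr13:66900576-66905350 in GRCm38), a subunit of complex III. It was at 52.4, 116 and 127 CPM in WT cDC1 and 48.2, 43.0 and 50.8 in KO cDC1, and the groups did not overlap. The log2 fold change was -1.06 (SE 0.28, adjusted p = 0.0488). Among all genes 5.32% passed, so 1 of 89 nuclear and 0 of 13 mitochondrial genes was not a high share. The median log2 fold change was -0.64 over the nuclear and -0.39 over the mitochondrial genes, against 0.00 over all genes tested, and 84 of 89 and 13 of 13 lay below 0. The call on Uqcrb was lost when any 1 of the cDC1 libraries other than WT replicate 1 was left out, with an adjusted p of 0.145 to 0.223, and with the cDC1 groups alone in the fit (0.121). Leaving out replicate 2 or 3 of either cDC2 group, which share the estimate of spread, also ended it (0.0592 to 0.0783). DESeq2 called 4 of the 102, all lower, where 4.19% of all genes were lower: Uqcrb, Ndufaf6, Ndufb11 and Atp5g3. Next to Uqcrb the smallest p by edgeR were those of Ndufaf6, a complex I assembly factor, and of Ndufb11, a complex I subunit. Ndufaf6 was at 13.6, 33.1 and 36.8 CPM in WT and 10.9, 9.55 and 14.2 in KO, with -1.27 (SE 0.37, adjusted p = 0.0755). Ndufb11 was at 138, 315 and 327 CPM in WT and 149, 125 and 143 in KO, with -0.90 (SE 0.30, adjusted p = 0.110). In both, WT replicate 1 lay within or near the KO range. The groups did not overlap for 4 lower nuclear genes (Uqcrb, Ndufs1, Ndufaf3, Ndufaf4), where 11.4% of all genes were lower without overlap. Sdha was the 1 nuclear gene higher without overlap, where 2081 of the 13415 genes tested were.

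These counts depended on WT cDC1 replicate 1. Without it, 70 of the 89 nuclear genes passed the test, all lower in KO, with a median of -0.95, while 10.5% of all genes were lower. None of the 13 mitochondrial genes passed, and their median was 0.12. In that library 86 of 89 nuclear genes lay below their own mean over the 12 libraries, as did 86, 79 and 77 in KO cDC1 replicates 2, 3 and 1 and 81 in KO cDC2 replicate 1. In the other 7 libraries 3 to 25 did.

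With replicates 2 and 3 alone, 79 nuclear genes fell in KO cDC1 and 1 rose, and 11 mitochondrial genes fell, with medians of -1.0 and -0.62, where 22.9% of all genes fell. All 8 nuclear genes of complex III fell (median -1.09), as did 31 of 36 of complex I (-0.96), 11 of 13 of complex IV (-1.07), 16 of 17 of complex V (-1.10), 7 of 8 assembly factors (-0.82), both Ndufb4 copies and Cox7a2l. In complex II, Sdhb, Sdhc and Sdhd fell and Sdha rose. Ndufb8, an accessory subunit of complex I, was at 80.7, 251 and 301 CPM in WT and 102, 103 and 118 in KO, a fall of 1.34 on the log2 scale in replicates 2 and 3 (adjusted p = 6.2e-05). Atp5e was at 171, 589.6 and 698 CPM in WT and 227, 213 and 246 in KO, with -1.51 (SE 0.20, adjusted p = 0.000106). Cox4i1 was at 272, 744 and 919.8 CPM in WT and 400.5, 345 and 399 in KO, with -1.18 (SE 0.15, adjusted p = 8.9e-05). In all 3 genes WT replicate 1 lay beside the KO libraries and WT replicates 2 and 3 above them. Sdha (Gene ID 66945, chr13:74322255-74350240) went the other way, at 259.5, 222 and 188 CPM in WT and 289, 280.2 and 285 in KO, with 0.44 (SE 0.11, adjusted p = 0.00683) in replicates 2 and 3 and 0.35 (SE 0.23, adjusted p = 0.446) with all libraries.

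Among the 9 nuclear genes that did not pass with replicates 2 and 3 were Ndufs1, Ndufs7, Ndufv1 and Ndufa10 of complex I, Atp5d of complex V, the assembly factor Ndufaf7, and the low genes Cox6b2 and Cox7a1. Ndufs1, Ndufs7 and Ndufv1 encode iron-sulfur or flavin subunits of the core of complex I. Their log2 fold changes were -0.10, -0.21 and -0.29, and that of Ndufa10 was -0.01. Other such core subunits fell in the same replicates: Ndufs3 (-0.71), Ndufs8 (-0.82) and Ndufv2 (-1.21). mt-Nd4 (-0.38) and mt-Nd5 (-0.25) were the mitochondrial genes that did not pass. The cDC2 and monocyte marker sums given above also differed between KO and WT cDC1, and their part in these changes was not tested.

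**Figure D2:**
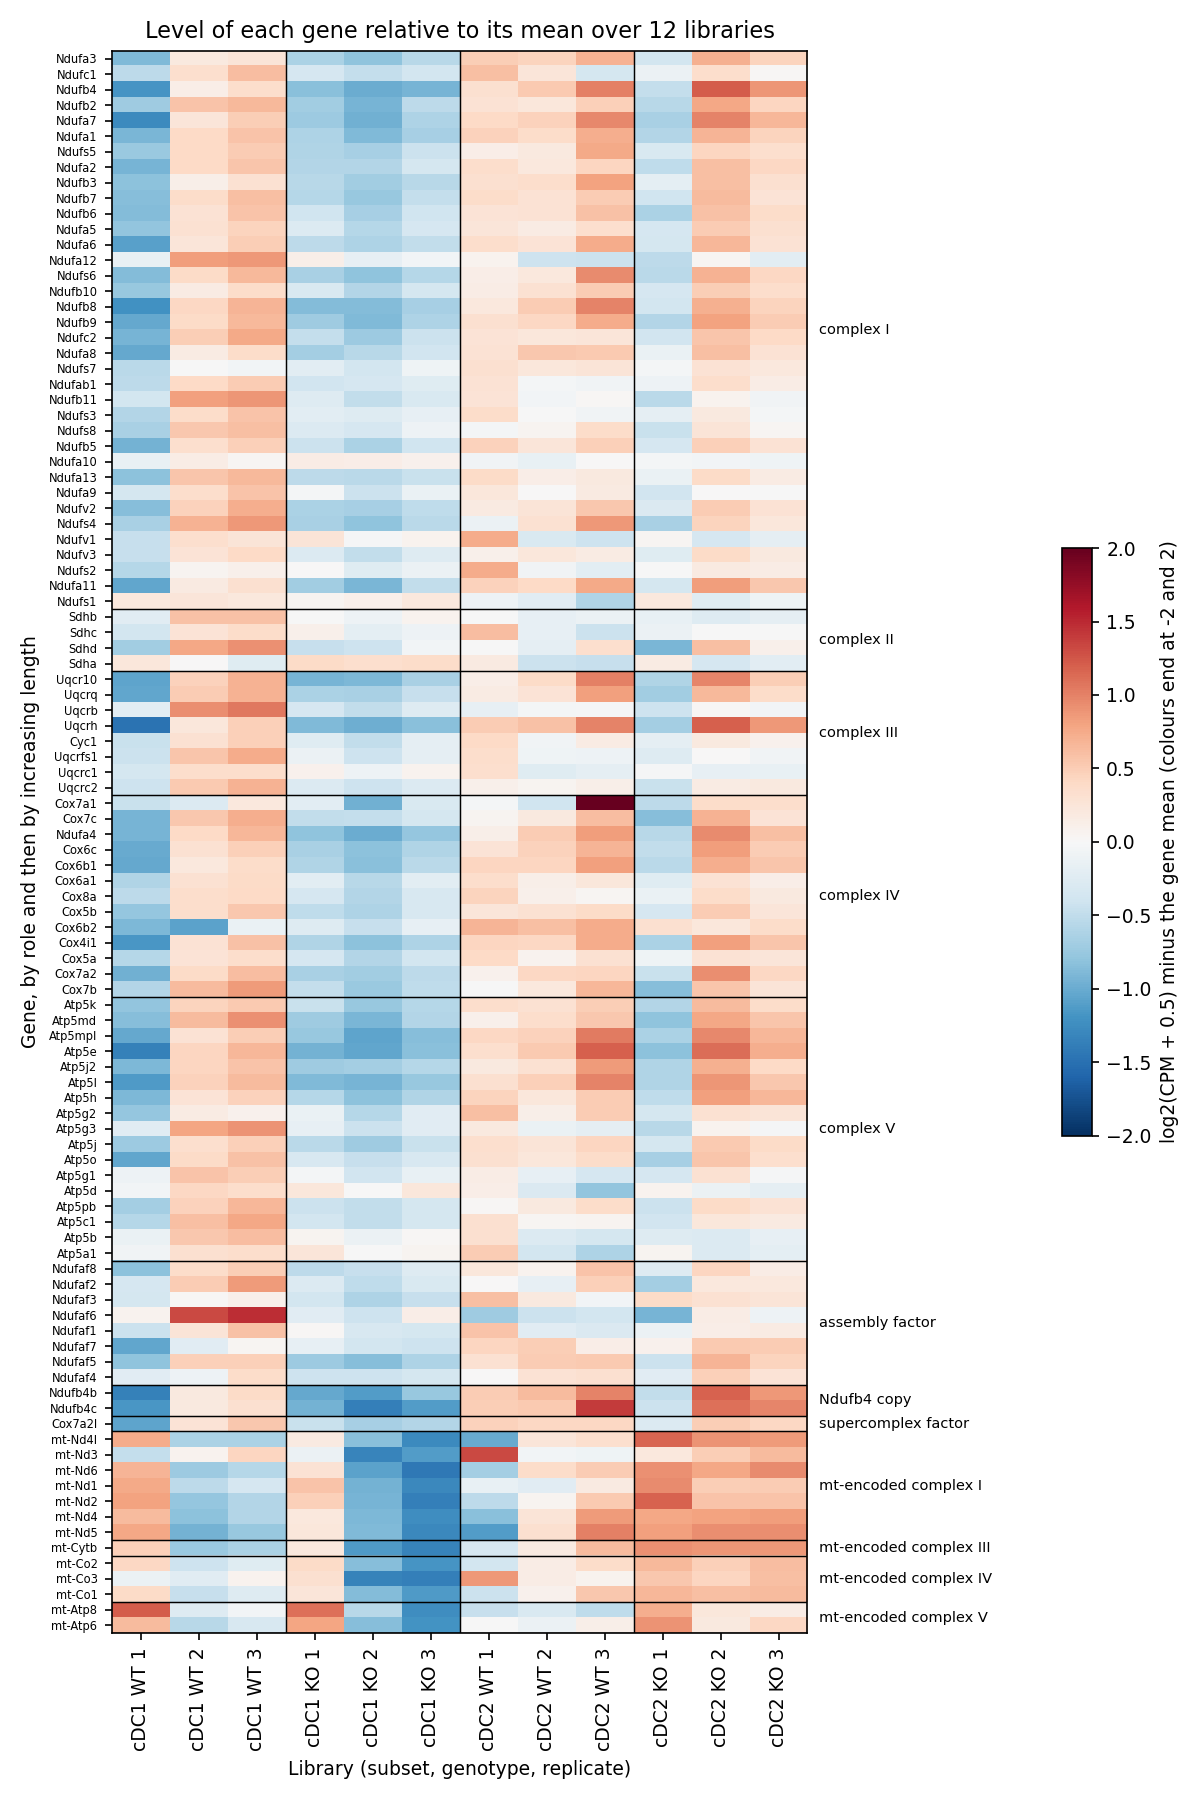
Level of each of the 102 genes (rows, by role and then by increasing length) in each of the 12 libraries (columns), as log2(CPM + 0.5) minus the gene's mean over the libraries, with colours ending at -2 and 2. The nuclear rows are low in WT cDC1 replicate 1 (86 of 89 below their mean), all KO cDC1 libraries (77 to 86) and KO cDC2 replicate 1 (81), and the mitochondrial rows are low in KO cDC1 replicates 2 and 3 (13 of 13 below their mean in both).

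**Figure D3:**
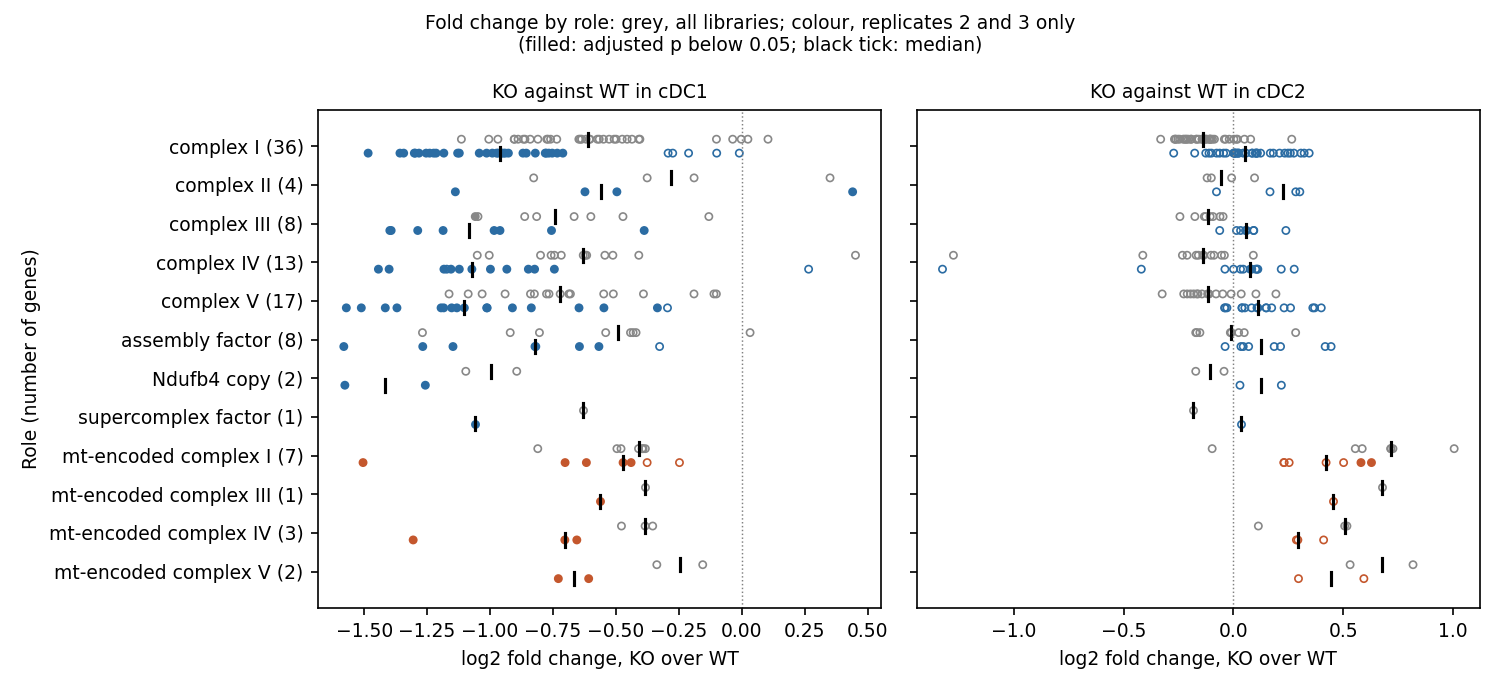
Log2 fold change of KO over WT (horizontal axis) for each gene, by role (vertical axis), in cDC1 (left) and cDC2 (right), with all libraries in grey and replicates 2 and 3 alone in colour, filled where the adjusted p is below 0.05 and with a black tick at the median. In cDC1 the nuclear median is -0.64 with all libraries and -1.0 with replicates 2 and 3, and in cDC2 the mitochondrial medians, 0.59 and 0.41, lie above 0.

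The Length column of the table bears on these values, because nuclear oxidative phosphorylation mRNAs are short. Their median length was 680 bases (292 to 3632), that of the mitochondrial genes 784 (204 to 1824) and that of all genes tested 2644; 59 of the 89 nuclear genes but 12.3% of all genes were at most 1000 bases. For KO against WT in cDC1, the median log2 fold change of all genes was -0.44 up to 500 bases, -0.39 up to 1000, -0.18 up to 2000 and 0.12 above. Nuclear oxidative phosphorylation genes of the same classes had medians of -0.84 (19 genes), -0.63 (40), -0.47 (23) and -0.11 (7), each below that of all genes of that length. Mitochondrial genes had -0.50 (3), -0.40 (5) and -0.39 (5), with none above 2000 bases. Across the 89 nuclear genes, length and fold change had a Spearman correlation of 0.465, against 0.322 across the 13415 genes; these genes share libraries, and no p is given.

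The trend with length could be seen library by library. Across all genes tested, the Spearman correlation of length with a library's level relative to the mean of 12 was 0.463 in WT cDC1 replicate 1, 0.318, 0.431 and 0.338 in KO cDC1, and 0.228 in KO cDC2 replicate 1. In the other 7 libraries it was -0.35 to -0.08. Those with a positive value were also the 5 with the lowest nuclear oxidative phosphorylation share, and ribosomal protein genes took 3.15% to 5.16% of their reads, against 7.08% to 11.9% in the other 7. With replicates 2 and 3 and an offset that follows length in each library, an alternative chosen after the data were seen, 54 nuclear genes fell and 3 rose in KO cDC1, where 19.3% of all genes fell. The medians were then -0.42 over the nuclear and -0.02 over the mitochondrial genes, and 2 mitochondrial genes, mt-Co3 and mt-Nd3, fell. The 3 that rose were Sdha, Ndufa10 and Ndufs7. Uqcrb kept its call, at -0.69 (SE 0.11, adjusted p = 0.000549), while Atp5e was at -0.77 (SE 0.13, adjusted p = 0.000917), Cox4i1 at -0.53 (SE 0.10, adjusted p = 0.00165) and Sdha at 0.36 (SE 0.09, adjusted p = 0.0108). How far RNA quality or library preparation contributed to the trend was not tested.

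**Figure D4:**
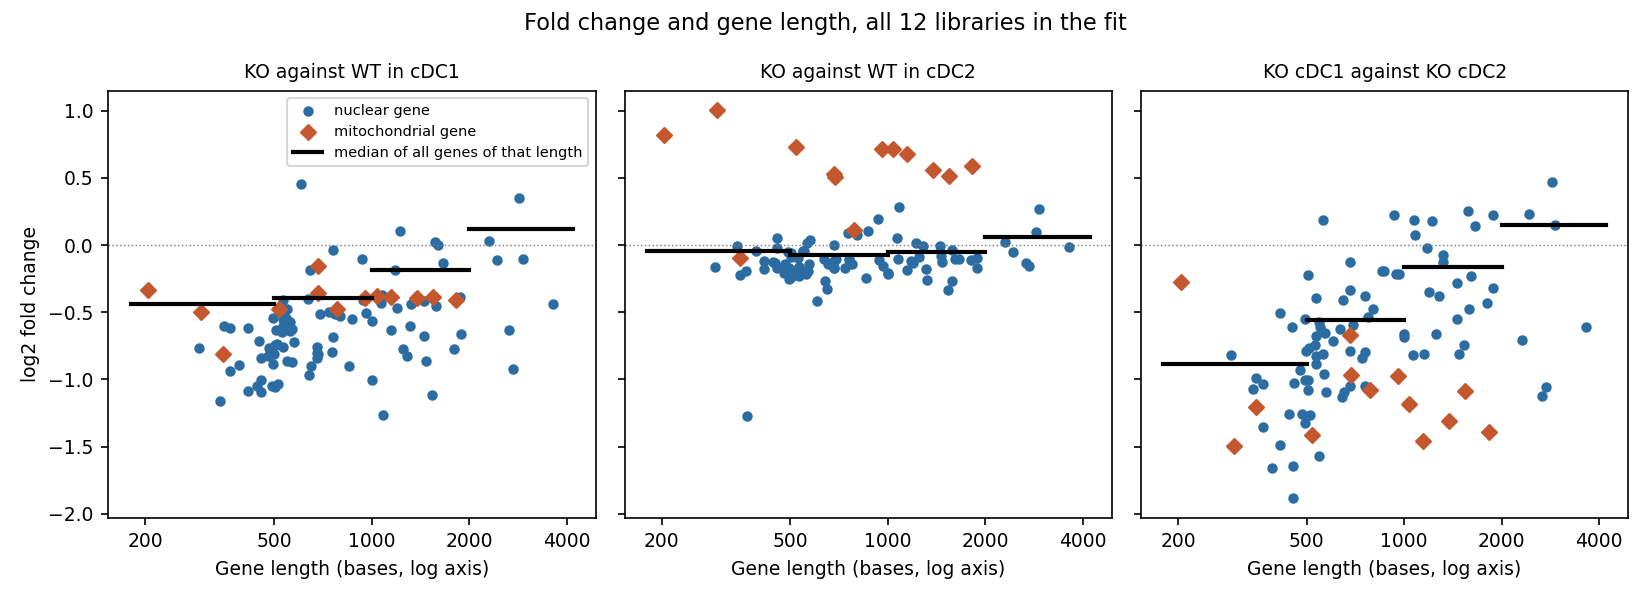
Log2 fold change (vertical axis) against gene length in bases (horizontal log axis) for nuclear genes (circles) and mitochondrial genes (diamonds) with all libraries in the fit, and the median of all genes in each length class (black lines), with a panel each for the genotype comparison in cDC1, that in cDC2, and the subsets in KO mice. In cDC1 the black medians go from -0.44 for the shortest to 0.12 for the longest genes, and in cDC2 12 of 13 mitochondrial genes lie above 0.

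In cDC2, mitochondrial mRNAs were higher in KO than in WT without passing the test, and no nuclear gene passed either. No gene passed with edgeR (0.0% of all genes), nor with DESeq2; 271 of 13415 genes and none of the 102 had an unadjusted edgeR p below 0.05, and with DESeq2 394 genes and 1 of the 102 did. Of the 13 mitochondrial genes, 12 lay above 0 with a median log2 fold change of 0.59, while the nuclear median was -0.13. For 9 of the 13 every KO library was above every WT library, against 3.33% of all genes tested, and for no nuclear gene. The 13 mRNAs are cut from shared precursors and counted in the same libraries, so these 9 are not independent results. Ndufa9 and Cox6b2, 2 of the 89 nuclear genes (2.25%), were lower without overlap, as were 342 of the 13415 genes tested. The smallest p among the members belonged to mt-Nd4l (chrM:9877-10173), a membrane subunit of complex I, at 39.5, 94.3 and 101 CPM in WT and 179, 149 and 144 in KO, with 1.01 (SE 0.47, adjusted p = 1.0). mt-Cytb, the only mitochondrial subunit of complex III, was at 1051, 1508 and 2064 CPM in WT and 2506, 2454 and 2433 in KO, with 0.68 (SE 0.44, adjusted p = 1.0). mt-Atp8 was at 85.9, 95.8 and 83.5 CPM in WT and 196, 139.6 and 132 in KO (0.82), and mt-Nd1 at 869.8, 826 and 1093 and 1864, 1351 and 1366 (0.72). In these 4 genes the KO libraries did not overlap the WT libraries. mt-Nd3 and mt-Co3 were the exceptions to the level of the others, at -0.10 and 0.11, with WT replicate 1 the highest of all 12 libraries for both.

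With replicates 2 and 3 alone, all 13 mitochondrial genes lay above 0 in cDC2, with a median of 0.41, and 2 rose: mt-Nd3 at 0.63 (SE 0.13, adjusted p = 0.0151) and mt-Nd4l at 0.58 (SE 0.14, adjusted p = 0.0279). Among all genes 7.72% passed. With the length offset as well neither passed, at 0.49 (SE 0.14, adjusted p = 0.0524) and 0.44 (SE 0.17, adjusted p = 0.136), while 8.57% of all genes did. No nuclear gene passed, and their median was 0.08. Neutrophil marker sums in these cDC2 libraries were 81.1 and 82.9 CPM in WT and 76.8 and 62.7 in KO, and macrophage markers 430.4 and 372 in WT and 231 and 223 in KO; their part in these values was not tested.

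The difference of the KO effect between cDC1 and cDC2 was tested as an interaction. No member passed with all libraries, where 1.42% of all genes did; 2 nuclear genes and 1 mitochondrial gene had an unadjusted p below 0.05, and DESeq2 called none of the 102. The smallest p were those of Ndufaf6, with -1.55 (SE 0.53, adjusted p = 0.256), Uqcrb, with -1.0 (SE 0.40, adjusted p = 0.394), and mt-Nd4l, with -1.50 (SE 0.66, adjusted p = 0.482). Medians were -0.55 over the nuclear and -1.0 over the mitochondrial genes, against -0.04 over all genes. All genes up to 500 bases had a median of -0.41 and those of 500 to 1000 bases -0.33. Nuclear genes of these classes had -0.635 and -0.54. With replicates 2 and 3 alone the KO effect was lower in cDC1 than in cDC2 for 79 nuclear and 11 mitochondrial genes, where 18.1% of all genes were lower, with medians of -1.10 and -1.01. With the length offset as well, 37 nuclear genes were lower and 2 higher, and 2 mitochondrial genes were lower, where 13.5% of all genes were lower. Without WT cDC1 replicate 1 and with the other libraries in the fit, 3 nuclear genes passed. The share of all genes in that fit is not given here.

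Between the subsets in WT mice few of these genes differed. Ndufaf6, a complex I assembly factor (Gene ID 76947, chr4:11048991-11076237), was higher in cDC1, at 13.6, 33.1 and 36.8 CPM against 7.67, 9.48 and 9.92 in cDC2, without overlap, with 1.63 (SE 0.38, adjusted p = 0.00840); it passed under all 22 alternatives run. In KO cDC1 it was at 10.9, 9.55 and 14.2 CPM. Cox6b2, the testis form of a complex IV subunit, was lower in cDC1, at 1.15, 0.969 and 2.31 CPM against 4.42, 4.18 and 4.64, with -1.58 (SE 0.37, adjusted p = 0.00899); its adjusted p was 0.0508 without WT cDC1 replicate 2 and 0.0772 with the WT groups alone. The next smallest p was that of Ndufa12, which did not pass, with 0.85 (SE 0.29, adjusted p = 0.0555). These 2 of 102 compare with 21.2% of all genes. Of the 102, 7 passed without WT cDC1 replicate 1, 4 without WT cDC2 replicate 1 and 1 without WT cDC1 replicate 2. The share of all genes in these fits with a library left out is not given here. Medians were -0.18 over both the nuclear and the mitochondrial genes.

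In replicates 2 and 3 alone, WT cDC1 was higher than WT cDC2 for 28 nuclear genes and lower for 6, and lower for 10 mitochondrial genes, where 47.5% of all genes passed. Among the higher were Atp5b, with 0.90 (SE 0.11, adjusted p = 4.4e-05), Sdhb, with 0.74 (SE 0.11, adjusted p = 0.000145), and Atp5g3, with 1.01 (SE 0.11, adjusted p = 1.5e-05). Among the mitochondrial genes mt-Nd5 had -1.53 (SE 0.20, adjusted p = 6.7e-05) and mt-Cytb -1.10 (SE 0.15, adjusted p = 8.3e-05). mt-Nd3, mt-Co3 and mt-Atp8 did not pass.

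Between the subsets in KO mice, 9 nuclear and 2 mitochondrial genes were lower in cDC1 and none was higher, where 16.9% of all genes passed. The nuclear genes were Ndufb4, Ndufb4b, Ndufb4c, Ndufa3 and Ndufa11 of complex I or its copies, Ndufaf3, Uqcrh, Ndufa4 and Atp5mpl, and the mitochondrial genes mt-Cytb and mt-Nd4l. Ndufb4, an accessory subunit of complex I (Gene ID 68194, chr16:37647602-37654368), was at 16.5, 14.7 and 15.4 CPM in cDC1 and 21.2, 69.4 and 55.5 in cDC2, with -1.65 (SE 0.44, adjusted p = 0.0225). Uqcrh was at 164, 154 and 169.7 CPM in cDC1 and 189, 698 and 556 in cDC2, with -1.57 (SE 0.49, adjusted p = 0.0453). mt-Cytb was at 1549, 610.1 and 529 CPM in cDC1 and 2506, 2454 and 2433 in cDC2, with -1.46 (SE 0.44, adjusted p = 0.0412). The groups did not overlap in any of the 3, and KO cDC2 replicate 1 was the library nearest to cDC1 for Ndufb4 and Uqcrh, as KO cDC1 replicate 1 was to cDC2 for mt-Cytb. Medians were -0.67 over the nuclear and -1.19 over the mitochondrial genes, against 0.00 over all genes. Length bears on the nuclear median. All genes up to 500 bases had a median of -0.88 and those of 500 to 1000 bases -0.56. Nuclear genes of these classes had -1.04 and -0.67, and -0.23 and -0.04 with the length offset. The 7 nuclear genes above 2000 bases had -0.61, against 0.15 over all such genes. With the offset and all libraries, 4 of the 11 calls stayed: Ndufa11, Ndufb4, Ndufb4b and Ndufb4c. Without overlap, 42 nuclear and 10 mitochondrial genes were lower in KO cDC1, against 22.7% of all genes. Here too the mitochondrial genes are not independent results. Ndufa10, Atp5b, Sdha and Sdhb were higher without overlap, as were 3370 of the 13415 genes tested.

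These subset libraries came from the same mouse pools. With the pool as a block, 1 of the 102 genes, Ndufb4c, kept an adjusted p below 0.05 (0.0445), where 11.5% of all genes passed; for Ndufb4 it was 0.0562, for mt-Cytb 0.0695 and for Uqcrh 0.102. Leaving out replicate 2 or 3 of either KO group left no member called, and leaving out KO cDC2 replicate 1 gave 31, all nuclear, where 11.5% of all genes were lower. With a library outside these groups left out of the shared fit, the count also moved. It was 49 without WT cDC1 replicate 1, where 13.4% of all genes were lower. It was 5 without WT cDC1 replicate 2, and 4 and 6 without WT cDC2 replicates 2 and 3. For the counts of 5, 4 and 6 the share of all genes is not given here. With replicates 2 and 3 alone, 70 nuclear and all 13 mitochondrial genes were lower in KO cDC1 and Sdha was higher, where 24.2% of all genes were lower, with medians of -0.90 and -1.79.

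Reads of Ndufb4 and Ndufb4c cannot be told apart with certainty by these counts. Over the 390 bases of Ndufb4c that align with the Ndufb4 transcript, 390 were identical, and GENCODE lists Ndufb4c as a processed pseudogene where the RefSeq table has it as protein-coding. In KO cDC1 Ndufb4 was at 14.7 to 16.5 CPM, Ndufb4b at 15 to 19.3 and Ndufb4c at 7.42 to 10.1, and in KO cDC2 replicates 2 and 3 at 69.4 and 55.5, 75.3 and 60.2, and 43.3 and 39.6. The values of Ndufb4 and Ndufb4c are uncertain for this reason, and the sequence of Ndufb4b was not compared.

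The 13 mitochondrial genes also changed in their proportions from library to library. mt-Co1, the catalytic subunit of complex IV, was at 7721, 4322 and 4962 CPM in WT cDC1, 7044, 3273 and 2717 in KO cDC1, 4406, 6315 and 8588 in WT cDC2 and 9442, 8993 and 9195 in KO cDC2. It took 28.0% to 39.7% of the mitochondrial reads. mt-Co3 and mt-Nd3, which lie next to each other on the mitochondrial genome (chrM:8607-9390 and chrM:9459-9806), together took 12.8%, 23.1% and 24.6% of the mitochondrial reads in WT cDC1 and 18%, 14.7% and 17.6% in KO cDC1. They took 37.2%, 19.3% and 14.5% in WT cDC2 and 16%, 17.1% and 18.4% in KO cDC2. The ratio of mt-Co3 to mt-Nd5 reads was 2.04, 6.15 and 6.68 in WT cDC1, 4.02, 2.74 and 3.56 in KO cDC1, 14.8, 3.33 and 1.96 in WT cDC2, and 3.08, 2.63 and 3.00 in KO cDC2. WT cDC2 replicate 1 had the highest and WT cDC2 replicate 3 the lowest value of this ratio, and the other 10 libraries lay between them.

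mt-Nd5 was at 330.1, 888 and 1427 CPM in WT cDC2 and 1255, 1365 and 1352 in KO cDC2, and its neighbour mt-Nd4 at 385, 823 and 1239 and 1177, 1196 and 1221. In both, WT cDC2 replicate 1 was below the other cDC2 libraries and near the level of WT cDC1 replicates 2 and 3, while WT replicate 3 was above the KO libraries. mt-Nd2 and mt-Nd6 had their lowest cDC2 value in the same library, at 405 and 124 CPM, and mt-Co2 likewise, at 976. mt-Atp6 did not follow, at 1208, 1131 and 1328 CPM in WT cDC2.

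**Figure D5:**
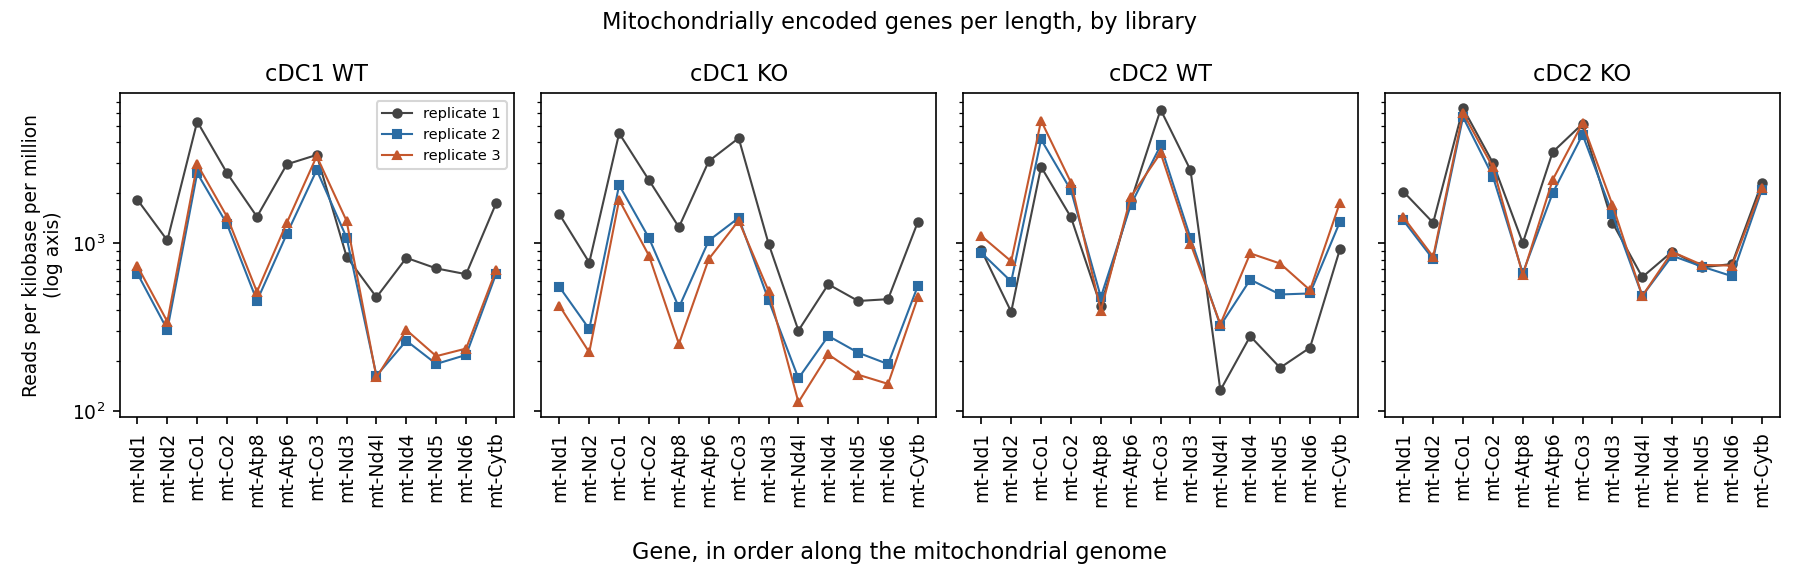
RPKM (vertical log axis) of the 13 mitochondrial genes in their order along the mitochondrial genome (horizontal axis), 1 line per library and 1 panel per group. In WT cDC2 replicate 1 the line is highest at mt-Co3 and mt-Nd3 and lowest from mt-Nd4l to mt-Cytb. The 3 KO cDC2 lines lie close together from mt-Nd4 to mt-Cytb, and that of replicate 1 lies above the others at mt-Nd1, mt-Nd2, mt-Atp8 and mt-Atp6.

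Neighbouring mitochondrial genes share bases, which bears on counts of genes as short as mt-Atp8 (204 bases). mt-Atp8 and mt-Atp6 overlap by 43 bases (chrM:7927-7969, GRCm38, plus strand), mt-Nd4l and mt-Nd4 by 7, mt-Atp6 and mt-Co3 by 1, and mt-Nd5 and mt-Nd6, on opposite strands, by 14. The strand setting of the counting is not given in the sources used here, so reads of mt-Nd6 and of RNA from the opposite strand cannot be told apart. The overlap of mt-Atp8 and mt-Atp6, where 1 stretch of RNA is read in separate frames, is shown from the GENCODE transcript, with the start codon of mt-Atp6 in capitals.
mt-Atp8 and mt-Atp6 overlap: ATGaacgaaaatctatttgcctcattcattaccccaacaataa

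Nuclear oxidative phosphorylation genes are known targets of the factors NRF1, GABPA and YY1, so their promoters were searched for short motifs of these factors on both strands: for NRF1, GCGCA, then any base N, then GCGC, and CCGGAAG for GABPA and AAGATGGCG for YY1. RefSeq promoters (GRCm38.p6, 250 bases before to 50 after the start) were at hand for 74 of the 89 nuclear genes. The NRF1 motif was in 19 of the 74 genes, 25.7%, against 5.19% of all 27025 genes with a RefSeq promoter. These were not matched to the 74 for expression or GC content, so the shares do not set oxidative phosphorylation genes apart from other expressed genes. The GABPA motif was in 18, 24.3%, against 9.93%, and the YY1 motif in 8, 10.8%, against 1.64%. At least 1 motif was in 38, 51.4%, against 15.1%. No matches of different motifs overlapped in these promoters. The promoters of Ndufb4 and Sdha, chosen with their values known, both hold 3 NRF1 matches. These begin 191, 79 and 22 bases before the start in Ndufb4 and 98, 55 and 10 in Sdha. In KO cDC1 replicates 2 and 3 Ndufb4 fell (-1.25) and Sdha rose (0.44). Reads of Ndufb4 cannot be told apart with certainty from those of Ndufb4c, and a link between matches and fold change was not tested. Both promoters are shown with that of Uqcrh, the highest nuclear complex III gene. Uqcrh has 1 GABPA match on the opposite strand, beginning 10 bases before the start. Capitals mark the matches. The promoters lie on the minus strand at chr16:37654319-37654618, chr13:74350191-74350490 and chr4:116075021-116075320 and are printed as RefSeq's table gives them.
Ndufb4: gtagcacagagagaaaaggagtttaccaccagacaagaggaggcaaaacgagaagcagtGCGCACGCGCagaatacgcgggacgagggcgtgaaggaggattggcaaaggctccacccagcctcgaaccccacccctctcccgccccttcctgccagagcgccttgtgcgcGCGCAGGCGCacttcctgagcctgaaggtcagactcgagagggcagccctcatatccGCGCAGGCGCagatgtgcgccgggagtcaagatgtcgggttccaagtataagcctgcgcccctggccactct
Sdha: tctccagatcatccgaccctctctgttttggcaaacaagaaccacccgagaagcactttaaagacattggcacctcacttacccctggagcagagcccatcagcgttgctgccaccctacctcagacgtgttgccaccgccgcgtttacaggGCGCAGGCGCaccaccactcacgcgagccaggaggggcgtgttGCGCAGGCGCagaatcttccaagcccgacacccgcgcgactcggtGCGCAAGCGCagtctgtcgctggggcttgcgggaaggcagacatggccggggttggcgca
Uqcrh: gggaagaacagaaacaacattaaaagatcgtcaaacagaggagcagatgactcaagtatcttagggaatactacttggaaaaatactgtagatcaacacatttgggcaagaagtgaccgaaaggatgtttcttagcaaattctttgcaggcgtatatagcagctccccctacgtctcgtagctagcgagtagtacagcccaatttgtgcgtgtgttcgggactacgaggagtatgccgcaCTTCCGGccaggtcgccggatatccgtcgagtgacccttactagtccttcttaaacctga
A match describes letters in the window and is not a measured binding site.

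Other genes of the pathway were followed in a list of 58: 15 for transcription and maintenance of mitochondrial DNA and its RNA, 4 for cytochrome c and the carriers of adenine nucleotides and phosphate, and 39 assembly factors with other symbols; 56 were tested. In cDC1 the cytochrome c gene Cycs was at 90.7 ± 23.7 CPM in WT and 46.6 ± 3.40 in KO (SD, n = 3), with a log2 fold change of -0.96 (SE 0.22, adjusted p = 0.0229). Sdhaf4, an assembly factor of complex II, was at 33.1 ± 16.8 CPM in WT and 7.87 ± 0.802 in KO, with -2.07 (SE 0.38, adjusted p = 0.00636). None of the other 54 passed in cDC1, where 5.32% of all genes did, none of the 56 in cDC2 and none in the interaction. In replicates 2 and 3, 20 of 38 assembly factors fell and 1 rose in KO cDC1, all 4 genes of the cytochrome c and carrier list fell, and 6 of 14 of the transcription list fell and 3 rose, where 22.9% of all genes fell.

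Between WT subsets, Cycs (log2 fold change 1.00, adjusted p = 0.00553) and Ttc19 (1.12, adjusted p = 0.00714), a factor of complex III, were higher in cDC1, and Sdhaf1 (-1.11, adjusted p = 0.0136), Gabpb1 (-0.65, adjusted p = 0.0404) and Uqcc2 were lower, by the edgeR test; these are 5 of 56, where 21.2% of all genes passed. Between KO subsets 10 of 56 were lower in cDC1 and none higher, near the 16.9% of all genes that passed, led by Sdhaf4 (-1.83), Uqcc2 (-1.88), Pet100 (-1.64) and Esrra (-0.72), a nuclear receptor of mitochondrial genes. Cycs was at 46.6 ± 3.40 CPM in KO cDC1 and 44.7 ± 7.15 in KO cDC2.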

How the data were processed

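Gene expression was measured by RNA sequencing of polyA RNA in 12 libraries of splenic dendritic cells, grouped by the labels alone. The authors counted reads per gene with featureCounts on GRCm38, per the submitters' processing notes, which give no version; the aligner and the strand setting are not given in the sources used here. The deposited table holds raw read counts under Entrez Gene identifiers with a gene length in bases, and no normalization. RefSeq's table of GRCm38.p6 gave symbols for 25275 of 27179 genes, and mitochondrial symbols came from GENCODE genes with the same start and end. Total counts per library, and so the counting error of low genes, are given in the report.

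The members and all lists were chosen with earlier results of these data known. edgeR 4.0.16 in R 4.3.3 was fitted to the whole table with TMM scaling, filterByExpr and 4 group means, by robust quasi-likelihood. Genes passed at a Benjamini-Hochberg adjusted p below 0.05 over all 13415 genes, two-sided. The SE was taken as the fold change (log2) divided by the root of its F value. CPM uses TMM-scaled totals. The fit was tested on simulated data with known changes. DESeq2 1.42.0, other scalings, no filter, a loess offset on length (span 0.3), blocks and left-out libraries were alternatives. For KO against WT within a subset, p-values measure the spread between libraries of different mouse pools, and each pool is of unstated size. For the subset comparisons and the interaction, the main fit took the cDC1 and cDC2 libraries of a pool as independent. P-values there leave out that pairing, except with the pool as a block.

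The named genes are the mitochondrial members, up to 8 called members per direction and comparison, the 3 smallest p where fewer were called, the 2 highest and the lowest subunit per complex, isoform genes, and genes next to the minimum; others, such as those listed as not passing or not overlapping, were named after their values were seen. The labels' mouse pools pair cDC1 with cDC2 libraries, whose deviations from the group means correlated at -0.20, -0.11 and -0.07 in WT and 0.26, 0.14 and 0.14 in KO.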

Additional observations from a re-analysis of the deposited data

How the results depend on the processing

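Counts of genes called among the 102 depended on the libraries numbered 1, on gene length and on the tool. For KO against WT in cDC1 the count was 1 with all libraries. It was 3 with the length offset, 4 with DESeq2, 0 with the 2 cDC1 groups alone, 0 to 70 with each of the 12 libraries left out, 91 with replicates 2 and 3, and 59 with these and the length offset. In cDC2 it was 0, and 2 with replicates 2 and 3. For the interaction it was 0, then 0 to 3 with each library left out, 90 with replicates 2 and 3, and 41 with the offset as well. Between WT subsets it was 2, then 11 with the length offset, 6 with DESeq2, 1 with these groups alone, 1 to 7 with each library left out, 44 with replicates 2 and 3, and 49 with the offset as well. Between KO subsets it was 11, then 7 with the length offset, 36 with DESeq2, 45 with these groups alone, 0 to 49 with each library left out, 84 with replicates 2 and 3, and 59 with the offset as well. Shares of all genes moved too. With all libraries 5.32% passed in cDC1, 1.42% in the interaction, 21.2% between WT subsets and 16.9% between KO subsets. With replicates 2 and 3, 22.9%, 18.1% and 24.2% were lower in cDC1, the interaction and between KO subsets, and 47.5% passed between WT subsets. Where no such share is given, a count cannot be told from a general change in calls. Fits without replicate 1 have fewer libraries per group and were chosen after the data were seen. The causes of the other differences were not tested.

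The replicate number as a block gave 0 genes in cDC1 and 17 between KO subsets; KO and WT libraries of equal number share only a number. Their deviations from the group means correlated at 0.02, -0.07 and 0.11 in cDC1 and at -0.05, -0.05 and -0.06 in cDC2, and 2 of 6 libraries in cDC1 and 0 of 6 in cDC2 correlated best with their own number. The mouse pool as a block gave 1 gene between KO subsets, and the block changed no other count by over 1.5 times.

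The KO minus WT difference of the log2 ratio in cDC2 was 0.65, and 0.259 with replicates 2 and 3. The interaction of the nuclear share was -0.265 percentage points, and -0.728 with replicates 2 and 3. Over left-out libraries the log2 ratio differences ran from -0.471 to 0.606 and from 0.38 to 0.846 for KO against WT in cDC1 and cDC2. Signs changed for values with no call: the median over mitochondrial genes in cDC1 went from -0.39 to 0.12 without WT cDC1 replicate 1, and with replicates 2 and 3 the nuclear median in cDC2 went from -0.13 to 0.08 and mt-Nd3 in cDC2 from -0.10 to 0.63, where it passed. Libraries of 11330503 or more reads leave genes such as Cox7a1, at 4 to 60 reads, with little precision, and 3 libraries per group limit all calls.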
